A study of Mus musculus with 39 samples.

Results

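AMP-activated protein kinase (AMPK) is the energy sensor of the cell, and the genes of its subunits and of the kinases that switch it on were followed through every gubernaculum and testis library of the study. The 9 genes were chosen by symbol and were the catalytic subunits Prkaa1 (α1) and Prkaa2 (α2), the scaffold subunits Prkab1 (β1) and Prkab2 (β2), the regulatory subunits Prkag1 (γ1), Prkag2 (γ2) and Prkag3 (γ3), and the upstream kinases Stk11 (LKB1) and Camkk2. All 9 were found, under the same symbol and identifier, among the 21561 Ensembl genes listed in both deposited tables.

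An AMPK complex holds 1 α, 1 β and 1 γ subunit. The α subunit is the kinase and is activated when LKB1 or CAMKK2 phosphorylates it, the β subunit ties the complex together and binds glycogen, and the γ subunit binds AMP, ADP and ATP. The α1, β1 and γ1 forms are widely expressed, α2 and β2 are prominent in skeletal muscle, γ3 is nearly restricted to skeletal muscle, and a shorter splice form of LKB1 is known from haploid germ cells. Values per gene do not separate splice forms, and RNA levels say nothing of phosphorylation.

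RNA-seq covered 39 libraries of male C57BL/6J mice in 13 groups of 3 biological replicates. The genotypes were WT, INSL3-KI, in which the coding sequence of minke whale INSL3 replaced that of the mouse at its own locus on both alleles, and INSL3-KO, whose allele is not described in the sources used here. Gubernaculum, the cord of mesenchyme and muscle that guides testis descent, was taken at postnatal day 8 (P8) from all 3 genotypes and at P23 from WT and INSL3-KI. Testis was taken at P8 and P23 from all 3 genotypes and at P40 from WT and INSL3-KI. Whether a library came from 1 animal or from pooled animals is not given in the sources used here, so p-values measure the spread between these samples.

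The values stand in 2 tables, one with 27 libraries (all WT and INSL3-KI groups except WT testis at P23) and one with 12 (all INSL3-KO groups and WT testis at P23). In 6 comparisons the groups lie in different tables, and there genotype and table cannot be told apart. Libraries held between 29861447 and 45260372 counts. Of 18370 expressed genes, 129 (0.702%) had all second-table libraries above, or all below, those of the first table, and no member was among them. Each table spans both tissues and several ages, so this check could miss a smaller shift between tables and does not clear the members of one. As a check of the labels, Insl3 had 2922, 3524 and 2722 counts in P8 WT testis, 33, 15 and 26 in INSL3-KI, and 906, 804 and 613 in the libraries labelled INSL3-KO, which at P23 had 0, 5 and 0. Directions drawn from P8 INSL3-KO testis therefore rest on libraries in which the targeted gene was still counted. In P40 testis Insl3 had 20183, 20887 and 29799 counts in WT and 445, 443 and 511 in INSL3-KI. In P23 gubernaculum it was low in both genotypes, with 27, 9 and 20 counts in WT and 12, 28 and 0 in INSL3-KI. There the check does not separate the labels. Rxfp2, the gene of the INSL3 receptor, had 1241, 1645 and 1403 counts in P8 WT gubernaculum, 61, 53 and 67 in INSL3-KI and 415, 434 and 1390 in INSL3-KO.

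Markers of several cell types moved with the groups. The summed level of 16 skeletal muscle fibre genes in P8 gubernaculum was 46359 to 53432 CPM (read counts scaled to a common library total, after TMM normalization over all libraries) in WT, 9419 to 10204 in INSL3-KO and 853 to 1388 in INSL3-KI, and all 16 were counted in WT. The sums of adipocyte, smooth muscle, epithelial and epididymis markers went the other way. Adipocyte sums were 91.3 to 105 CPM in WT, against 770 to 1023 in INSL3-KI and 1926 to 2163 in INSL3-KO. Epididymis sums were 0.561 to 0.774 CPM in WT, 652 to 1647 in INSL3-KI and 1024 to 1150 in INSL3-KO. Of the 6 epididymis genes only 3 could be tested against WT in each mutant. In INSL3-KI 1 was lower and 2 were higher at an adjusted p-value under 0.05 in edgeR, and in INSL3-KO 2 were higher. Epithelial sums were 19.6 to 51.3, 758 to 917 and 492 to 539 CPM, and smooth muscle sums 989 to 1318, 15930 to 19833 and 7252 to 7784 CPM. Like the muscle fibre sum, that of 6 fibroblast and mesenchyme genes was lower in both mutants. It was 44483 to 47906 CPM in WT, 18165 to 27023 in INSL3-KI and 28422 to 30558 in INSL3-KO. Sums of 4 macrophage genes were 164 to 250, 98.8 to 106 and 136 to 142 CPM. In testis, 7 spermatocyte genes summed to 10495 to 10534 CPM in P23 WT and 188 to 201 in P23 INSL3-KO, and to 7419 to 8474 in P40 WT and 493 to 3040 in P40 INSL3-KI. In whole tissue, fewer cells of a type and less RNA per cell cannot be told apart, and the part of these shifts in the results below was not tested.

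The 3 muscle-associated subunit genes were the members that were lower than WT in both P8 mutants by the widest margins, and the 250 bases before their RefSeq start sites (build GRCm38.p6, 5′ to 3′ on the gene's own strand) are shown so that their sequences can be set side by side. Capitals mark an E-box, CANNTG, the motif bound by myogenic helix-loop-helix factors, which was searched together with the core of the MEF2 motif, CTA and TAG parted by any 4 bases. Both motifs read the same on either strand.
Prkag3, chr1:74748956-74749205, minus strand: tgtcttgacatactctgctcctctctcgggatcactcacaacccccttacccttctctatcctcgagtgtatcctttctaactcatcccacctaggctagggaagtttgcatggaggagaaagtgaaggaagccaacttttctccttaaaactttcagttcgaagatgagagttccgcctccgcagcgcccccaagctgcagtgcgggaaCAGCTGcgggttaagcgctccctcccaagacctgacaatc
Prkaa2, chr4:105109899-105110148, minus strand: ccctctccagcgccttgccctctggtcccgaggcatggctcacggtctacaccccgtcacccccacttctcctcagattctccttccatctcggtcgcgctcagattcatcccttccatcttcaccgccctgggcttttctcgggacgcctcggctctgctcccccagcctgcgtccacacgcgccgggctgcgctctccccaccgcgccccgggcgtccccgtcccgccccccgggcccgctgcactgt
Prkab2, chr3:97657962-97658211, plus strand: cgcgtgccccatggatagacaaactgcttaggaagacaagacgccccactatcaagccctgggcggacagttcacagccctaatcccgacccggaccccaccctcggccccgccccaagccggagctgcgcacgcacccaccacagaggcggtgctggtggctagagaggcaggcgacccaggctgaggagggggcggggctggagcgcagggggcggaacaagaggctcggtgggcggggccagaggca
Only the Prkag3 window held an E-box, whose first base lies at position -40 from the RefSeq start site, and none of the 3 held the MEF2 core. The Prkag3 window lies inside the span of the gene in GENCODE (74738922 to 74749221), so it is upstream of the RefSeq start only. The Prkab2 window runs past the GENCODE start (97658193) at its end. Of 32851 listed promoters, 66.2% held at least 1 CANNTG and 3.20% held the MEF2 core in windows of this length. The Prkaa2 and Prkab2 windows were 70.0% and 69.2% G and C against 52.4% for Prkag3.

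In P8 gubernaculum both mutants differed from WT by subunit form. Prkaa2, Prkab2 and Prkag3 fell, Prkag2 rose 3.06-fold in INSL3-KO and 3.39-fold in INSL3-KI, Prkab1 rose less, and Prkag1 passed the test in neither. A member is said to have passed at an adjusted p-value under 0.05 in edgeR's quasi-likelihood test with Benjamini-Hochberg adjustment over all genes, and to be a differentially expressed gene (DEG) at an adjusted p-value under 0.01 with a fold change of at least 2, the study's threshold. Between INSL3-KO and WT, 5 members passed as lower and 3 as higher, 4 of them DEGs, where 68.7% of 15609 genes passed (33.3% lower and 35.4% higher) and 30.7% were DEGs. Between INSL3-KI and WT, 4 members passed as lower and 3 as higher, 3 of them DEGs, beside 54.7% of 15500 genes (25.8% lower, 28.9% higher) and 24.1% DEGs. With so many genes passing, these counts set the members little apart, and the sizes and directions are what follows. The 2 comparisons share their WT libraries. The median log2 fold change of the 9 genes was -0.41 in INSL3-KO and -0.07 in INSL3-KI, beside 0.03 and 0.02 for all genes tested.

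The catalytic subunits changed places. Prkaa2 (chromosome 4, 105029874 to 105109890, minus strand, GRCm38) had 76.9, 85.3 and 95.0 CPM in WT, against 19.3, 24.7 and 19.8 in INSL3-KI and 33.8, 28.8 and 32.2 in INSL3-KO. The 3 groups did not overlap, with INSL3-KI lowest. Its log2 fold change was -1.44 (SE 0.10, adjusted p = 2.3e-05) in INSL3-KO and -1.99 (SE 0.14, adjusted p = 1e-05) in INSL3-KI. Prkaa1 (chromosome 15, 5143861 to 5181899, plus strand) had 44.1, 48.0 and 35.5 CPM in WT, against 59.0, 53.3 and 52.3 in INSL3-KI and 73.1, 73.8 and 70.8 in INSL3-KO, so that all 3 groups again stood apart and INSL3-KO was highest. Its log2 fold change was 0.77 (SE 0.12, adjusted p = 0.00087) in INSL3-KO. In INSL3-KI it was 0.39 (SE 0.13, adjusted p = 0.036), a call that was lost when any 1 library other than WT replicate 2 was left out (adjusted p = 0.052 to 0.12) and when the dependence of each library on GC content and transcript length was taken out, below called the GC and length trend (log2 fold change 0.21).

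**Figure D1:**
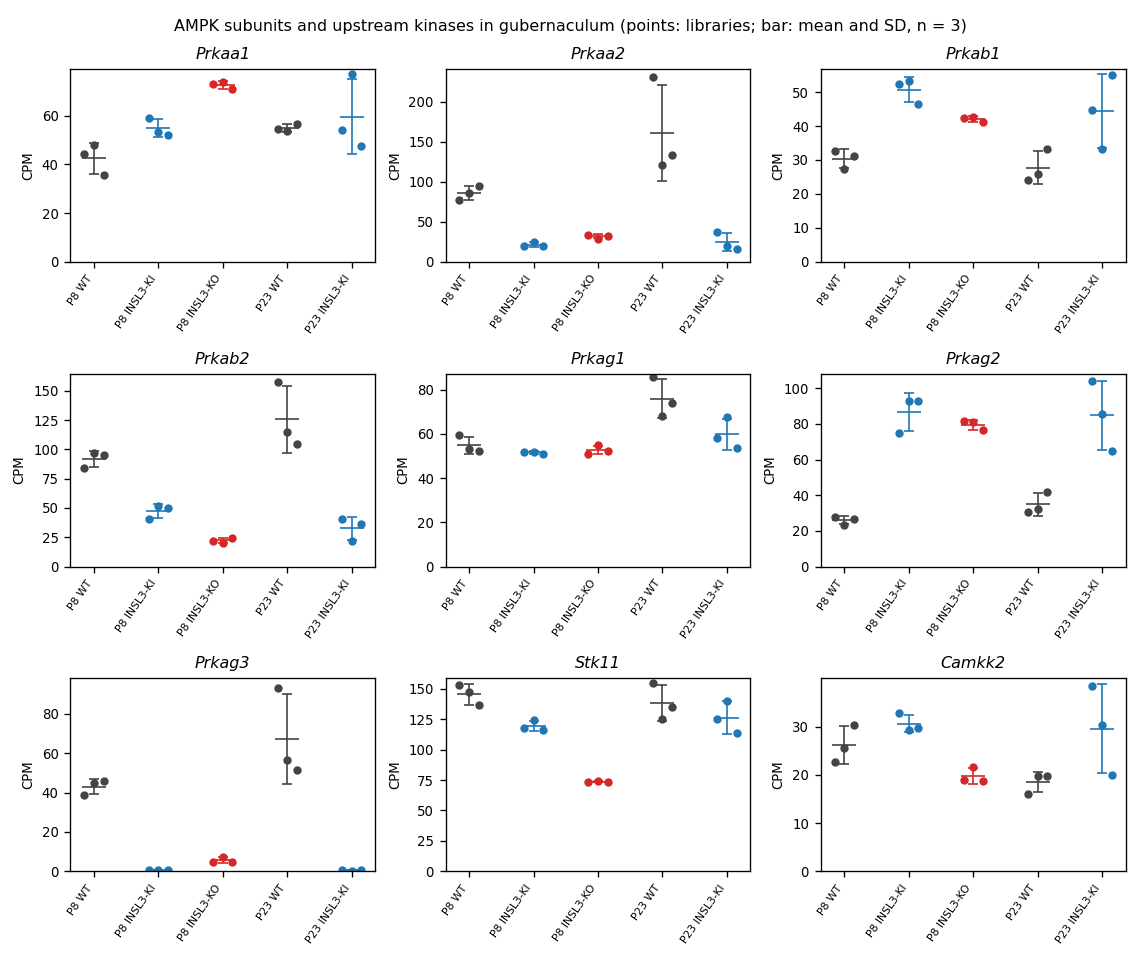
Levels of the 9 genes in gubernaculum, in CPM on a linear axis from 0, by age and genotype, with 1 point per library and bars for the mean and SD of 3 libraries. Prkaa2, Prkab2 and Prkag3 are high in both WT groups and low in every mutant group, while Prkag2 is low in WT and high in every mutant group.

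Per length of transcript, the shares within each class can be compared. Prkaa2 made up 54.0% ± 5.97 (SD, n = 3) of the summed α FPKM (fragments scaled to transcript length and library total) in P8 WT, against 18.4% ± 2.63 in INSL3-KI and 20.3% ± 1.49 in INSL3-KO. A share within a library does not depend on how libraries are scaled, whereas a sum does, so sums are not compared here.

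The scaffold subunits moved in the same opposed way. Prkab2 (chromosome 3, 97658193 to 97673812, plus strand) had 84.2, 96.5 and 95.3 CPM in WT, against 40.7, 51.8 and 50.1 in INSL3-KI and 22.0, 20.4 and 24.5 in INSL3-KO. It was lowest in INSL3-KO without overlap, at a log2 fold change of -2.05 (SE 0.10, adjusted p = 3.8e-06). INSL3-KI differed from WT by -0.93 (SE 0.12, adjusted p = 0.00035). Prkab1 (chromosome 5, 116013586 to 116024508, minus strand) went up from 32.7, 27.3 and 31.3 CPM in WT to 52.4, 53.2 and 46.4 in INSL3-KI and 42.5, 42.6 and 41.2 in INSL3-KO. Both mutant groups lay above all WT libraries, with log2 fold changes of 0.76 (SE 0.11, adjusted p = 0.00077) in INSL3-KI and 0.47 (SE 0.09, adjusted p = 0.0025) in INSL3-KO. The share of Prkab2 in the summed β FPKM was 55.4% ± 4.15 in WT, against 27.8% ± 3.24 in INSL3-KI and 18.3% ± 1.48 in INSL3-KO.

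Among the regulatory subunits Prkag3 showed the widest change of all members. This gene (chromosome 1, 74738922 to 74749221, minus strand), whose promoter window is shown above, had 38.7, 44.7 and 45.7 CPM in P8 WT, 4.67, 7.43 and 4.96 in INSL3-KO and 0.587, 0.563 and 0.577 in INSL3-KI, where the raw counts were 22, 19 and 19. INSL3-KI was 73.2-fold lower than WT, a log2 fold change of -6.19 (SE 0.16, adjusted p = 1.2e-07). INSL3-KO was 7.57-fold lower, at -2.92 (SE 0.19, adjusted p = 1.7e-05). Prkag2 (chromosome 5, 24862744 to 25100642, minus strand) rose from 27.9, 23.6 and 26.4 CPM in WT to 74.6, 93.0 and 92.8 in INSL3-KI and 81.4, 80.9 and 76.3 in INSL3-KO. Its log2 fold change was 1.76 (SE 0.13, adjusted p = 1.6e-05) in INSL3-KI and 1.61 (SE 0.09, adjusted p = 6.5e-06) in INSL3-KO. The mutant groups overlapped each other and both lay far above WT.

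Prkag1 (chromosome 15, 98812797 to 98831521, minus strand), the common γ form, had 59.3, 53.1 and 52.3 CPM in WT, against 51.8, 52.0 and 51.0 in INSL3-KI and 51.1, 54.8 and 52.4 in INSL3-KO. Its log2 fold changes from WT were -0.06 (SE 0.08, adjusted p = 0.51) in INSL3-KO and -0.07 (SE 0.09, adjusted p = 0.55) in INSL3-KI, and their sign was not stable, turning to 0.11 and 0.24 when libraries were scaled by size alone. With the GC and length trend removed the INSL3-KO value became -0.62 and passed. In the summed γ FPKM, Prkag3 went from 28.2% ± 3.85 in WT to 0.330% ± 0.0164 in INSL3-KI and 3.37% ± 0.778 in INSL3-KO, and Prkag2 from 14.6% ± 0.996 to 47.6% ± 3.04 and 42.2% ± 1.06. Prkag1 stayed the largest γ share, at 57.2%, 52.1% and 54.4%.

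**Figure D2:**
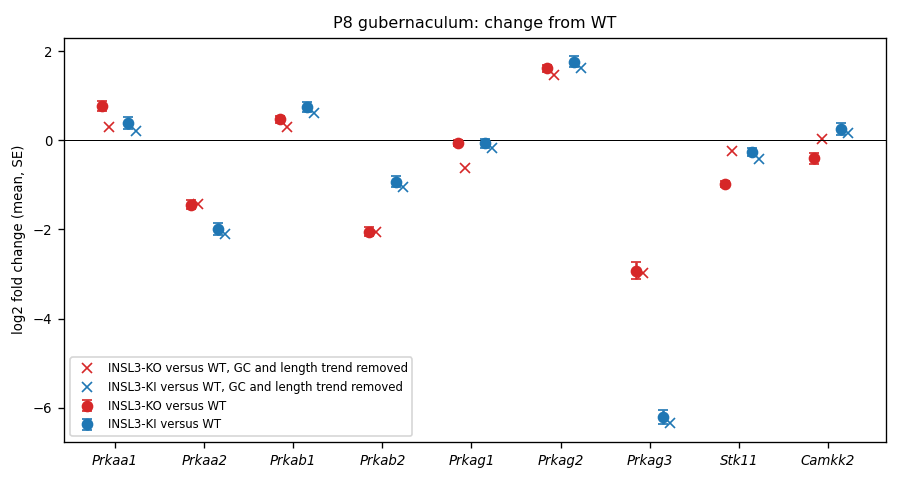
Log2 fold change from WT of each gene in P8 gubernaculum of INSL3-KO (red) and INSL3-KI (blue), as points with the SE from edgeR, and as crosses the same value with the GC and length trend removed. The crosses lie beside the points for Prkaa2, Prkab2, Prkag2 and Prkag3, while those of Stk11 and Camkk2 in INSL3-KO lie nearer to 0 or past it.

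The upstream kinases were lower in INSL3-KO in the table as deposited. Stk11 (chromosome 10, 80115803 to 80130682, plus strand) had 153, 147 and 136 CPM in WT, against 118, 124 and 116 in INSL3-KI and 73.6, 73.9 and 73.7 in INSL3-KO. The 3 groups did not overlap, and the INSL3-KO libraries lay close together at the bottom. Its log2 fold change was -0.98 (SE 0.07, adjusted p = 2.6e-05) in INSL3-KO, and -0.23, still passing, once the GC and length trend was removed. Stk11 has the highest GC content of the 9 genes (59.5%), and across 15606 genes the log2 fold change of this comparison correlated with GC content (Spearman's rho = -0.287), while for INSL3-KI against WT, within the first table, rho was 0.00393. In INSL3-KI its log2 fold change was -0.26 (SE 0.09, adjusted p = 0.038). That call was lost without INSL3-KI replicate 1 or 3 or WT replicate 2 (adjusted p = 0.084 to 0.13), and the sign turned when libraries were scaled by size alone (0.05).

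Camkk2 (chromosome 5, 122731170 to 122779409, minus strand), the calcium-dependent kinase, had 22.6, 25.6 and 30.2 CPM in WT, against 32.7, 29.4 and 29.8 in INSL3-KI and 19.0, 21.6 and 18.7 in INSL3-KO. INSL3-KO lay just below WT, and INSL3-KI overlapped it. The log2 fold change was -0.41 (SE 0.13, adjusted p = 0.024) in INSL3-KO. It no longer passed without INSL3-KO replicate 1 or 3 or WT replicate 2 or 3 (adjusted p = 0.054 to 0.085), and it was 0.04 with the GC and length trend removed. In INSL3-KI it was 0.25 (SE 0.13, adjusted p = 0.14).

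Setting the 2 mutants against each other, 3 members passed as lower and 4 as higher in INSL3-KI, 2 of them DEGs, beside 64.6% of 15642 genes (32.2% lower, 32.5% higher) and 22.5% DEGs. These 2 groups lie in different tables, so genotype and table cannot be told apart here. Prkab2 was 2.11-fold higher in INSL3-KI, at a log2 fold change of 1.08 (SE 0.12, adjusted p = 0.00022), and Prkag3 was 9.93-fold lower, at -3.31 (SE 0.27, adjusted p = 6.7e-05). Prkaa2 was lower too (log2 fold change -0.59, SE 0.12, adjusted p = 0.004), and so was Prkaa1 (log2 fold change -0.42, SE 0.07, adjusted p = 0.0014). Of the muscle-associated forms, 2 thus had the smaller level in INSL3-KI and 1 in INSL3-KO, while summed muscle fibre markers were lower in INSL3-KI. Stk11 was higher in INSL3-KI (log2 fold change 0.68, SE 0.05, adjusted p = 6.1e-05), as was Camkk2 (log2 fold change 0.62, SE 0.09, adjusted p = 0.001), but with the GC and length trend removed these became -0.19 and 0.13. Prkab1 differed by 0.25 (SE 0.07, adjusted p = 0.016), a call lost without INSL3-KO replicate 1 or 3 (adjusted p = 0.0535 and 0.0662). Prkag1 and Prkag2 did not pass, although Prkag2 did so without INSL3-KI replicate 1 (log2 fold change 0.21, adjusted p = 0.031).

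By P23 the same forms stood apart in INSL3-KI gubernaculum, with a wider spread. Of 15082 genes 13.4% passed (8.53% lower, 4.86% higher) and 2.57% were DEGs, and of the members 3 passed as lower and 1 as higher, with Prkag3 the 1 DEG. The DEG count over all genes, 387, was 0 with the replicate block, and with DESeq2 1395 genes were lower and 839 higher DEGs. Prkag3 had 93.3, 56.4 and 51.7 CPM in WT and 0.733, 0.349 and 0.499 in INSL3-KI (26, 11 and 22 counts), a log2 fold change of -6.98 (SE 0.46, adjusted p = 0.0017), and it passed with each library left out, though without WT replicate 2 or with the replicate block its adjusted p-value (0.012 and 0.017) missed the DEG threshold. Prkaa2 had 230.1, 120.2 and 133 CPM in WT, where replicate 1 stood above the others, and 37.7, 19.6 and 16.0 in INSL3-KI, at -2.72 (SE 0.46, adjusted p = 0.02). Prkab2 had 158, 114 and 104 CPM and 40.4, 21.5 and 36.0 CPM, at -1.94 (SE 0.32, adjusted p = 0.019). The groups did not overlap for any of these 3 genes. Prkag2 was higher, with 30.5, 32.1 and 42.0 CPM in WT and 104, 85.4 and 65.1 in INSL3-KI, at 1.28 (SE 0.24, adjusted p = 0.026).

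The number of members passing at P23 was 1 without WT replicate 1 or 2 and 2 without WT replicate 3. Without a WT replicate the log2 fold change of Prkaa2 ranged from -2.84 without replicate 3 and -2.90 without replicate 2 to -2.36 without replicate 1 (adjusted p = 0.054 to 0.065), Prkab2 lost the call without WT replicate 1 or 2 (-1.74 and -2.01, adjusted p = 0.0665 and 0.0693), and Prkag2 without any WT replicate or INSL3-KI replicate 1 (1.06 to 1.43, adjusted p = 0.0602 to 0.111). Muscle fibre markers summed to 89932 to 163000 CPM in P23 WT and 38.7 to 1036 in INSL3-KI, and adipocyte markers to 117 to 153 and 483 to 14644. Single libraries stood apart in other lists: 6 epididymis genes summed to 0.321, 0.454 and 1072 CPM in WT replicates 1 to 3 and 2296, 2.03 and 7406 in those of INSL3-KI, 4 epithelial genes to 966, 2.72 and 1536 and 5 smooth muscle genes to 14227, 1799 and 12622 in INSL3-KI, and the part of these cells in the results was not tested. The other members did not pass: Prkab1 had 24.0, 26.0 and 33.2 CPM in WT and 44.7, 33.2 and 55.1 in INSL3-KI, and Camkk2 16.1, 19.8 and 19.7 and 38.4, 30.4 and 19.9. Stk11 overlapped, with 154, 125 and 135 CPM and 125, 140.1 and 113 CPM. The isoform shares were close to those at P8, with Prkaa2 at 61.7% ± 8.01 of α FPKM in WT and 19.3% ± 8.44 in INSL3-KI, and Prkag3 at 29.4% ± 5.60 and 0.282% ± 0.0972 of γ FPKM.

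Whether the effect of INSL3-KI differed between P23 and P8 was tested with an interaction term, in which 6.82% of 16016 genes passed. No member passed with edgeR, 1 had an unadjusted p-value under 0.05, and DESeq2 called 1. The smallest adjusted p-value was that of Prkab2, whose difference from WT at P23 was below that at P8 by a log2 value of -1.04 (SE 0.34, adjusted p = 0.091). In WT gubernaculum from P8 to P23, 2 members passed, both higher (35.3% of 14941 genes passed, 17.0% lower and 18.3% higher). Prkaa2 differed by 0.93 (SE 0.25, adjusted p = 0.024) and Prkag1 by 0.48 (SE 0.13, adjusted p = 0.025), and both lost the call without WT P8 replicate 2 or 3 (adjusted p = 0.060 to 0.10), Prkaa2 also without WT P8 replicate 1 (0.0806) and Prkag1 without WT P23 replicate 3 (0.0504).

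**Figure D3:**
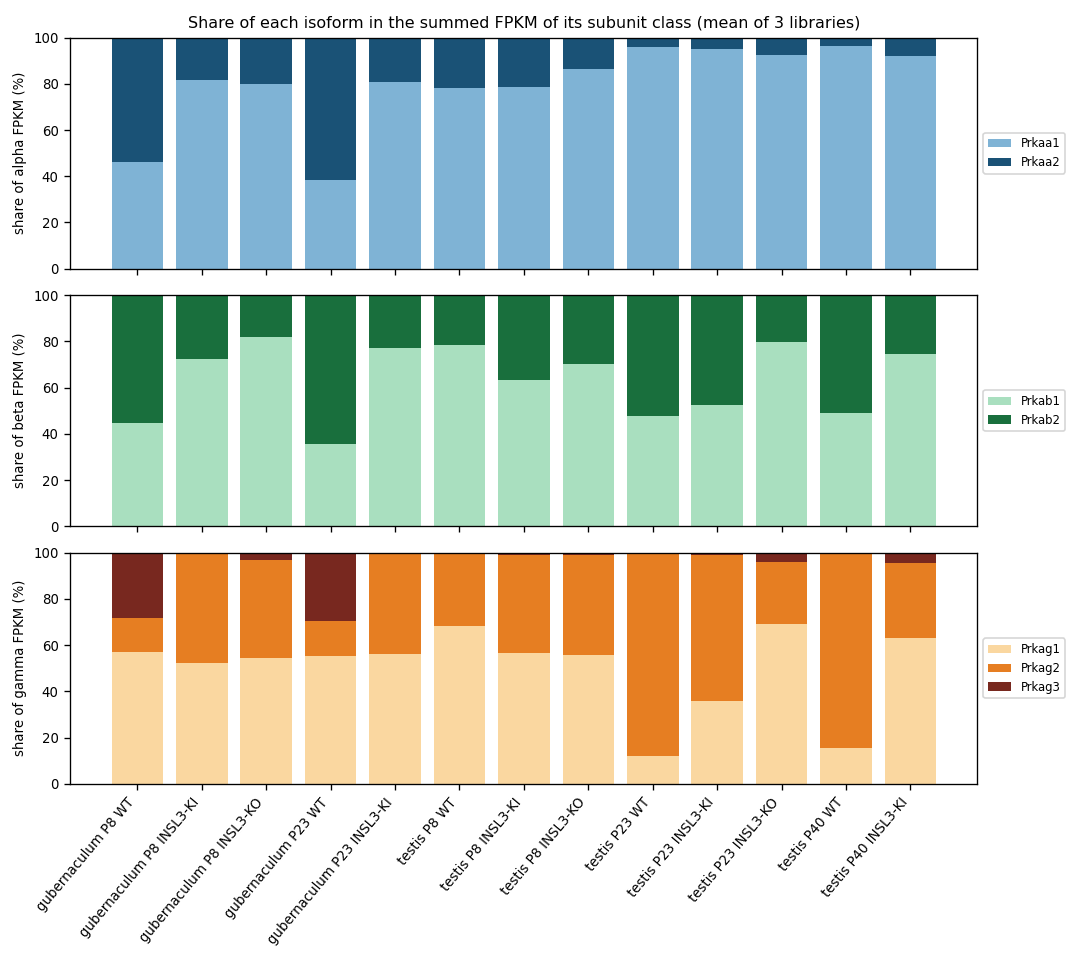
Share of each isoform in the summed FPKM of its class (α, β or γ) in each of the 13 groups, as stacked bars from 0 to 100% of the mean over 3 libraries. Prkaa2, Prkab2 and Prkag3 take their largest shares in WT gubernaculum, except that Prkab2 also holds 47.7 to 52.3% in P23 WT, P23 INSL3-KI and P40 WT testis, and Prkag2 dominates the γ class in P23 and P40 WT testis.

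Tissue set the same forms apart in WT mice. Between P8 gubernaculum and P8 testis 5 members passed as higher and 1 as lower in gubernaculum, 4 of them DEGs, beside 60.1% of 15624 genes (30.3% lower, 29.8% higher) and 28.4% DEGs. Prkag3 had 0.804, 1.04 and 0.408 CPM in testis and was 57.9-fold higher in gubernaculum, a log2 fold change of 5.85 (SE 0.31, adjusted p = 8e-06). Prkaa2, at 12.6, 11.5 and 11.3 CPM in testis, differed by 2.88 (SE 0.12, adjusted p = 2.6e-06) and Prkab2, at 24.6, 20.9 and 26.7, by 1.95 (SE 0.12, adjusted p = 1.9e-05). The testis in turn held 8.07-fold more Camkk2 (log2 fold change -3.01, SE 0.15, adjusted p = 5.9e-06), with 218, 238 and 187 CPM. Prkaa1 (log2 fold change 0.82, SE 0.14, adjusted p = 0.0019) and Prkag1 (log2 fold change 0.47, SE 0.10, adjusted p = 0.0053) were higher in gubernaculum too, but Prkag1 was at 0.04 and did not pass under library size alone. The muscle fibre sum in P8 WT testis was 52.5 to 65.8 CPM.

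During maturation of the WT testis the regulatory and upstream genes turned over. From P8 to P40, 3 members passed as higher and 4 as lower, 5 of them DEGs, where 82.3% of 16892 genes passed (40.6% lower, 41.7% higher) and 59.7% were DEGs. Prkag2 rose 10.9-fold, from 37.0, 26.0 and 28.1 CPM to 349, 331 and 318, a log2 fold change of 3.44 (SE 0.15, adjusted p = 3.4e-07). Camkk2 fell from the P8 values above to 49.0, 45.8 and 45.9 CPM, at -2.20 (SE 0.11, adjusted p = 7.1e-07). Stk11 rose from 133, 125 and 106 to 234, 243 and 229.9 CPM, at 0.94 (SE 0.10, adjusted p = 4.6e-05), and Prkaa1 from 22.3, 24.5 and 26.3 to 47.8, 52.9 and 47.9, at 1.01 (SE 0.10, adjusted p = 4.1e-05). None of these groups overlapped. Under library size alone, which moved the median of all genes to -0.70, Stk11 and Prkaa1 still passed but at 0.27 and 0.33.

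The widely expressed β1 and the muscle-associated α2 forms went down with age in WT testis. Prkab1 fell from 34.1, 36.0 and 37.5 to 11.5, 11.2 and 11.8 CPM (log2 fold change -1.65, SE 0.10, adjusted p = 2.6e-06) and Prkaa2 to 3.53, 3.19 and 3.11 CPM (log2 fold change -1.86, SE 0.17, adjusted p = 2.4e-05). Prkag1 fell from 38.5, 39.3 and 43.0 to 30.6, 30.4 and 30.3 CPM (log2 fold change -0.42, SE 0.09, adjusted p = 0.0029), and its log2 fold change was -1.10 under library size alone. The 3 WT libraries of P23 testis, from the other table, were near those of P40, with Prkag2 at 383, 368 and 373 CPM. Cell type markers moved in both directions beside these values. The 6 spermatid genes summed to 0.332 to 0.613 CPM in P8 WT and 7625 to 9455 in P40 WT. The 5 spermatogonia genes summed to 374 to 627 and 113 to 126 CPM, and all 5 passed as lower. The 5 Sertoli cell genes summed to 988 to 1243 and 203 to 243 CPM, with 3 passing as lower and 1 as higher. Prkag2 went from 31.0% ± 5.20 of γ FPKM at P8 to 87.7% ± 1.08 at P23 and 84.5% ± 0.577 at P40.

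**Figure D4:**
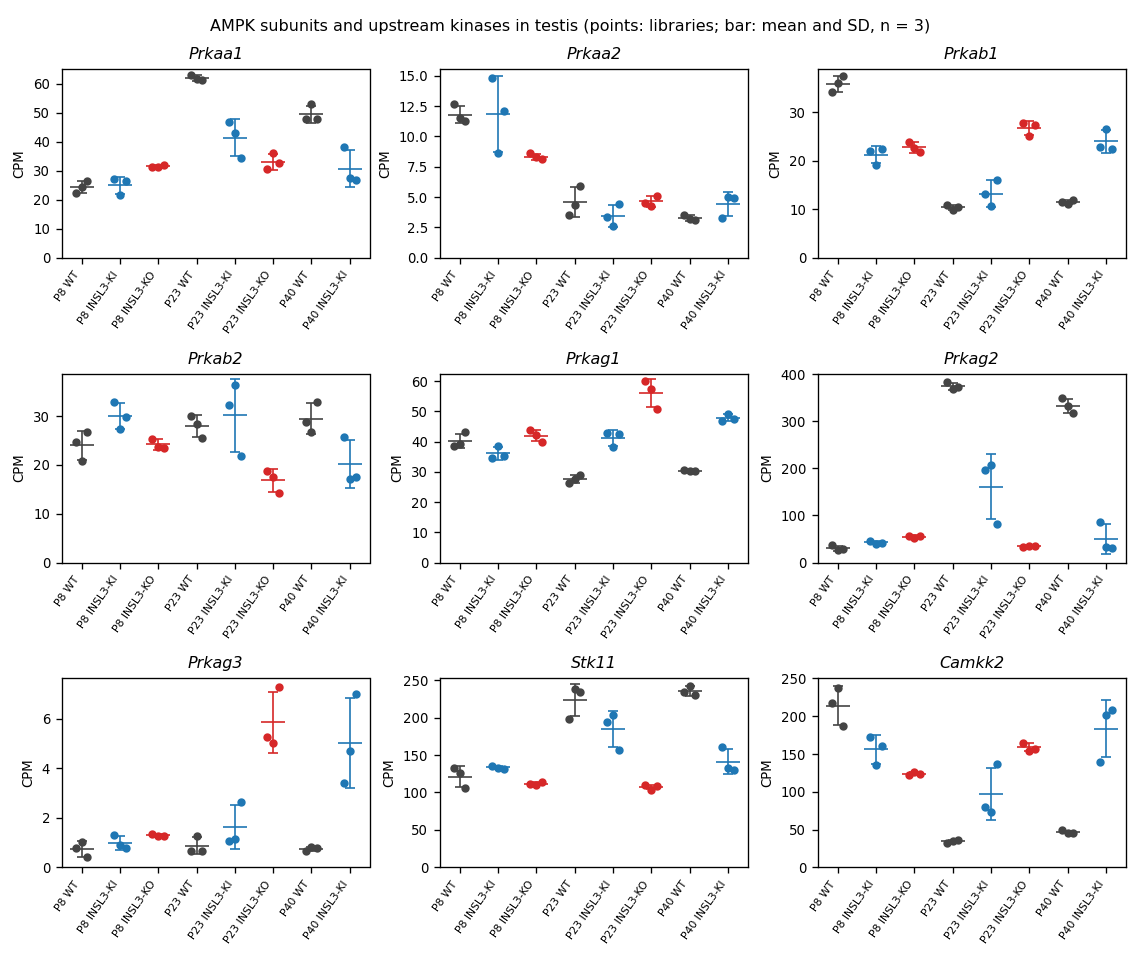
Levels of the 9 genes in testis, in CPM on a linear axis from 0, by age and genotype, with 1 point per library and bars for the mean and SD of 3 libraries. Prkag2 is highest in P23 and P40 WT and Camkk2 lowest there, and in P23 INSL3-KO and P40 INSL3-KI both lie closer to P8 WT.

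In P23 testis the INSL3-KO and WT libraries lie in the same table, and most genes passed, 8 of the 9 members among them. Here 4 members passed as lower and 4 as higher, 6 of them DEGs, beside 88.4% of 16732 genes (44.0% lower, 44.4% higher) and 64.4% DEGs. Prkag2 was at 32.8, 34.3 and 35.5 CPM in INSL3-KO, 11.0-fold below WT, a log2 fold change of -3.45 (SE 0.05, adjusted p = 2.2e-12). Camkk2 had 32.5, 35.2 and 36.5 CPM in WT and 165, 155 and 157 in INSL3-KO, 4.56-fold more, at 2.19 (SE 0.06, adjusted p = 2.3e-10). Prkab1 had 10.9, 9.83 and 10.4 CPM in WT and 27.8, 25.2 and 27.3 in INSL3-KO (log2 fold change 1.36, SE 0.10, adjusted p = 2.8e-07). Prkag1 had 26.4, 27.6 and 29.1 and 59.9, 57.5 and 50.9 CPM (log2 fold change 1.02, SE 0.08, adjusted p = 6.8e-07). Every one of these groups stood apart.

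The remaining changes in P23 INSL3-KO testis were smaller or at low levels. Prkag3, at 0.661, 1.26 and 0.678 CPM in WT, reached 5.25, 5.04 and 7.29 in INSL3-KO (log2 fold change 2.75, SE 0.30, adjusted p = 1e-05). Stk11 went from 199, 238 and 234 to 109.7, 104 and 109 CPM (log2 fold change -1.06, SE 0.07, adjusted p = 1.8e-07), Prkaa1 from 63.1, 61.7 and 61.2 to 30.5, 36.1 and 32.7 (log2 fold change -0.91, SE 0.07, adjusted p = 8.5e-07) and Prkab2 from 30.0, 28.5 and 25.5 to 18.8, 17.6 and 14.2 (log2 fold change -0.73, SE 0.12, adjusted p = 0.0002). Scaled by library size alone, under which the median of all genes moved to 0.69, Prkab2 did not pass (-0.10), and with limma on log2(FPKM + 1) Stk11 did not (-0.17). Prkaa2 had 3.54, 4.34 and 5.90 CPM in WT and 4.55, 4.29 and 5.14 in INSL3-KO and did not pass. Beside these values, spermatid genes summed to 12515 to 14627 CPM in WT and 2.64 to 4.17 in INSL3-KO, and Sertoli cell genes to 231 to 238 and 1413 to 1439.

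In P23 INSL3-KI testis the means of Prkag2 and Camkk2 lay between those of the other 2 genotypes. Against WT, across tables, 2 members passed as lower and 2 as higher (50.7% of 16603 genes passed, 24.7% lower and 26.1% higher). Prkag2 had 195, 206 and 81.2 CPM and Camkk2 80.4, 73.7 and 136, so that replicate 3 stood apart in both, nearer to INSL3-KO. The spermatocyte sums of replicates 1 to 3 were 6558, 6609 and 3004 CPM. The log2 fold changes from WT were -1.24 (SE 0.33, adjusted p = 0.02) for Prkag2 and 1.49 (SE 0.27, adjusted p = 0.0062) for Camkk2, and Prkaa1 (log2 fold change -0.59, SE 0.13, adjusted p = 0.011) and Prkag1 (log2 fold change 0.57, SE 0.13, adjusted p = 0.011) passed as well. Prkag2, Prkaa1 and Prkag1 lost the call without WT replicate 1 or 2 (adjusted p = 0.051 to 0.064), Prkag2 and Prkaa1 also without WT replicate 3, and scaled by library size alone Prkaa1 did not pass (-0.12). Against INSL3-KO, also across tables, 3 members passed as lower and 3 as higher (65.6% of 16379 genes, 29.2% lower and 36.4% higher). Higher in INSL3-KI were Prkag2 (log2 fold change 2.27, SE 0.34, adjusted p = 0.0014), Stk11 (log2 fold change 0.83, SE 0.13, adjusted p = 0.0018) and Prkab2 (log2 fold change 0.88, SE 0.22, adjusted p = 0.011), the last 2 not passing with the GC and length trend removed. Prkab1 (log2 fold change -0.97, SE 0.19, adjusted p = 0.0048), Prkag3 (log2 fold change -1.79, SE 0.43, adjusted p = 0.01) and Prkag1 (log2 fold change -0.40, SE 0.12, adjusted p = 0.027) were lower, and Prkag1 passed only with all libraries or without INSL3-KI replicate 3 (adjusted p = 0.051 to 0.12 without the others).

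At P40, within the first table, most genes passed between INSL3-KI and WT, 8 of the 9 members among them. Prkaa2 again did not pass. Of the members 4 passed as lower and 4 as higher, 4 of them DEGs, beside 77.0% of 16677 genes (36.6% lower, 40.4% higher) and 47.7% DEGs. Prkag2 had 86.0, 32.7 and 31.1 CPM in INSL3-KI, with replicate 1 well above the other 2, and a log2 fold change of -2.71 (SE 0.43, adjusted p = 0.0018). Without that replicate it was -3.33. Camkk2 had 139.8, 202 and 208 CPM, again with replicate 1 nearest to WT, at 2.01 (SE 0.20, adjusted p = 0.00041). The spermatocyte sums of INSL3-KI replicates 1 to 3 were 3040, 543 and 493 CPM. Prkag3 had 0.664, 0.826 and 0.770 CPM in WT and 3.42, 4.70 and 6.99 in INSL3-KI (log2 fold change 2.77, SE 0.35, adjusted p = 0.00076).

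The β1 and γ1 forms were higher as well in P40 INSL3-KI testis. Prkab1 was at 22.8, 26.6 and 22.4 CPM (log2 fold change 1.10, SE 0.12, adjusted p = 0.00055) and Prkag1 at 47.0, 49.1 and 47.6 (log2 fold change 0.69, SE 0.09, adjusted p = 0.00098), each above all WT libraries. Stk11, at 160.5, 133 and 130.0 CPM, was lower (log2 fold change -0.71, SE 0.13, adjusted p = 0.0038), as was Prkaa1, at 38.2, 27.4 and 26.7 (log2 fold change -0.66, SE 0.16, adjusted p = 0.0091). With library size as the only scaling, which moved the median of all genes to 0.70, these 2 were -0.10 and -0.05 and did not pass. Prkab2 was lower (log2 fold change -0.52, SE 0.19, adjusted p = 0.043), a call that held only with all libraries or without INSL3-KI replicate 1 (adjusted p = 0.077 to 0.15 without the others) and a direction that turned to 0.09 under library size alone. Prkag2 held 32.4% ± 13.2 of γ FPKM in P40 INSL3-KI and 26.6% ± 3.44 in P23 INSL3-KO.

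**Figure D5:**
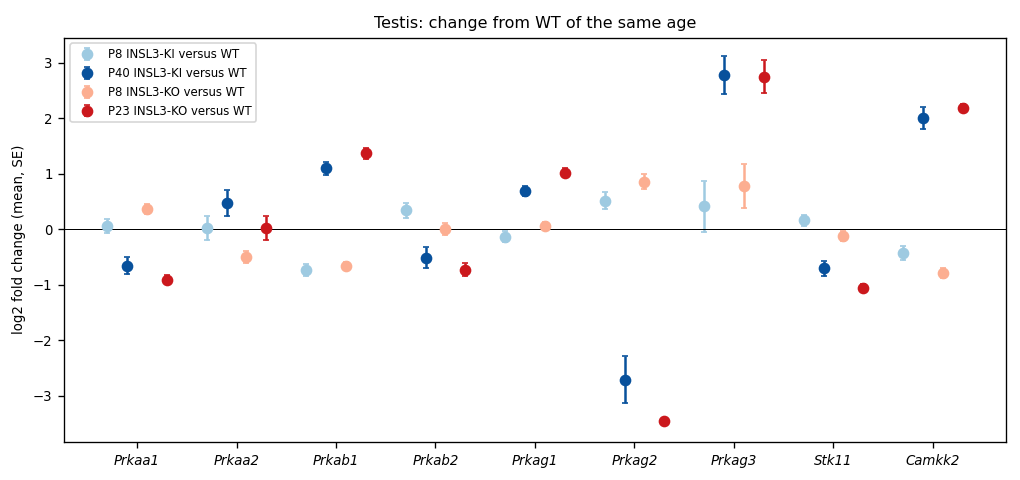
Log2 fold change from WT of the same age for each gene in testis, with the SE from edgeR, for INSL3-KI at P8 (light blue) and P40 (dark blue) and INSL3-KO at P8 (light red, across tables) and P23 (dark red). At P8 all values lie within 1 of 0, while at P23 and P40 Prkag2 lies near -3 and Camkk2 and Prkag3 lie above 2.

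At P8 the log2 fold change from WT of every member in testis lay within 1 of 0 in both mutants. Between INSL3-KI and WT 2 members passed as lower and 1 as higher, where 36.0% of 15702 genes passed (18.7% lower, 17.3% higher). Prkab1 had 22.0, 19.2 and 22.4 CPM in INSL3-KI against the 34.1 to 37.5 of WT (log2 fold change -0.74, SE 0.11, adjusted p = 0.0057). Camkk2, at 172, 136 and 160.4 CPM, was lower (log2 fold change -0.44, SE 0.13, adjusted p = 0.037), and Prkag2, at 46.2, 39.3 and 42.6, was higher (log2 fold change 0.51, SE 0.16, adjusted p = 0.043). Camkk2 lost the call when any library other than WT replicate 3 was left out (adjusted p = 0.059 to 0.15), and Prkag2 without INSL3-KI replicate 1 or 3 or WT replicate 2 or 3 (0.089 to 0.13). Markers moved beside these values: spermatocyte genes summed to 56.3 to 96.9 CPM in WT, 331 to 1818 in INSL3-KI and 430 to 439 in INSL3-KO, 5 Leydig cell genes to 462 to 555, 177 to 206 and 399 to 412, and 6 fibroblast genes to 6708 to 20522, 3144 to 5049 and 5084 to 5249. Their part in the differences was not tested.

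Between INSL3-KO and WT at P8, across tables, 3 members passed as lower and 2 as higher (54.4% of 15723 genes, 28.4% lower and 26.0% higher). Camkk2, at 123, 126 and 124 CPM, was lower (log2 fold change -0.79, SE 0.09, adjusted p = 0.00029), as were Prkab1, at 23.9, 22.6 and 21.8 (log2 fold change -0.66, SE 0.08, adjusted p = 0.00037) and Prkaa2, at 8.62, 8.27 and 8.12 (log2 fold change -0.51, SE 0.11, adjusted p = 0.0071). Prkag2, at 56.4, 51.4 and 57.5 CPM, was higher (log2 fold change 0.86, SE 0.14, adjusted p = 0.0017), as was Prkaa1, at 31.2, 31.1 and 32.1 (log2 fold change 0.36, SE 0.08, adjusted p = 0.0084), the last not passing with the GC and length trend removed (0.17). The same 3 genes as in INSL3-KI, Prkab1, Camkk2 and Prkag2, were among them, but both comparisons use the same WT libraries. Between the mutants, also across tables, 2 members passed as lower and 3 as higher in INSL3-KI (32.6% of 15728 genes, 16.1% lower and 16.5% higher), with log2 fold changes between -0.37 (Prkag2) and 0.33 (Camkk2). None of the 5 passed with the GC and length trend removed. Prkaa1, Prkab2 and Camkk2 also lost the call without any 1 library other than INSL3-KI replicate 2 (adjusted p = 0.0542 to 0.148), and Prkag2 without INSL3-KO replicate 1 or 3 (0.0748 and 0.075).

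The effect of INSL3-KI on the testis changed with age for most genes tested, 8 of the 9 members among them. In the interaction of age and genotype between P40 and P8, 4 members passed as lower and 4 as higher, beside 66.9% of 17354 genes (33.4% lower, 33.5% higher). The effect on Prkag2 was lower at P40 (log2 fold change -3.31, SE 0.46, adjusted p = 0.00017), and that on Camkk2 higher (log2 fold change 2.37, SE 0.25, adjusted p = 4.1e-05). Prkab1 was lower in INSL3-KI than in WT at P8 and higher at P40, a difference of 1.76 (SE 0.16, adjusted p = 2.1e-05). Prkaa2 was the member that did not pass.

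Ranked by mean CPM over the 13 groups, Prkag3 spanned the widest range, 127-fold from P23 WT gubernaculum to P23 INSL3-KI gubernaculum, followed by Prkaa2 (49.1-fold), Prkag2 (14.4-fold) and Camkk2 (11.5-fold). Prkag1 (2.74-fold), Prkaa1 (2.98-fold) and Stk11 (3.19-fold) varied least. Neighbours in these orders mostly overlapped, in 11 of 12 steps for Prkaa1 and 9 of 12 for Prkag3. For Prkag3 the steps without overlap were those below P23 WT gubernaculum (67.1 CPM), below P8 WT gubernaculum (43.1 CPM), and from P40 INSL3-KI testis (5.04 CPM) to P23 INSL3-KI testis (1.63 CPM). For Camkk2 the 8 highest groups were all testis, led by P8 WT (214 CPM), and the 5 lowest were the gubernaculum groups, all between 18.6 and 30.6 CPM. For Stk11 the 3 highest groups were P40 WT (235 CPM), P23 WT (223 CPM) and P23 INSL3-KI testis (185 CPM), and P8 INSL3-KO gubernaculum (73.7 CPM) was lowest without overlap, although with the GC and length trend removed Stk11 in INSL3-KI gubernaculum was below INSL3-KO (-0.19).

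Compared per length, Stk11 led the 9 genes in P8 WT gubernaculum with 45.1, 40.1 and 37.6 FPKM, followed by Prkag1 with 30.7, 27.1 and 26.1, and Camkk2 was lowest with 4.11, 4.72 and 5.76. In P8 WT testis Camkk2 (55.8, 58.6 and 46.3 FPKM) and Stk11 (50.3, 46.8 and 36.3 FPKM) overlapped at the top. In P23 WT testis Prkag2 was highest with 79.4, 75.3 and 71.5 FPKM.

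The genes whose log2 CPM followed a member most closely were ranked by Pearson's r, over 15 gubernaculum libraries and 17079 genes, or over 24 testis libraries and 17051 genes. These libraries share groups and tables, so r is a description of the profiles. In gubernaculum Prkag3 was followed by Stac3 (0.99), which couples excitation to contraction in skeletal muscle, Ripply1 (0.99) and Bin1 (0.99), and Prkaa2 by Napb (0.98), Coro6 (0.98) and Lrrfip1 (0.97). Prkab2 was followed by Ehbp1l1, Arhgef10l and Zfp652 (0.97 to 0.98), Prkag2 by Elovl5, Cyp1b1 and Inafm2 (0.97 to 0.98), and Stk11 by Ddx23, Agap3 and Plekhm2 (0.98 each). Prkaa1 (Rpia, Tmigd1 and Fbxl5), Prkab1 (Hoxb9, Rac3 and Arhgef26), Prkag1 (Phlda3, Borcs5 and Cd59a) and Camkk2 (Itpkb, Med12l and Clmn) had leading values of 0.94, 0.96, 0.97 and 0.90. Between members, Prkaa2 and Prkag3 had r = 0.93, and Prkag2 had -0.83 with Prkaa2 and -0.87 with Prkag3.

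In testis Prkag2 was followed by Ggnbp2, Tpgs2 and Trim36 (0.99 each), Camkk2 by Ajuba, Tcf25 and Axl (0.99 each), and Stk11 by Otud3, Pacs1 and Rnf19b (0.98 to 0.99). Prkag2 and Camkk2 themselves had r = -0.97, and Prkag2 had 0.94 with Stk11 and 0.93 with Prkaa1. The leading genes were Stx8, Zfp992 and Uqcrq for Prkaa1, Pgr, Nsmf and Epb41 for Prkaa2, Armcx2, Fam171a1 and Tmem109 for Prkab1, and Rbbp8, Cxxc1 and Hmcn2 for Prkab2. They were Fabp5, Wfdc1 and Mccc1 for Prkag1 and Cd151, Serpina5 and Slc25a18 for Prkag3, whose testis counts were as low as 16 in a library.

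Beyond the members, 82 genes of the pathway were listed. They were partners of LKB1 and other upstream kinases, the folliculin complex, the AMPK-related kinases and proteins that AMPK phosphorylates. Downstream metabolic genes, and the hormones and receptors that feed into the pathway, were listed too. In P8 INSL3-KO gubernaculum 44 of 82 passed as lower and 22 as higher, beside the 33.3% and 35.4% of all genes, with a median log2 fold change of -0.33. The split was 35 to 28, with a median of -0.09, when the GC and length trend was removed, and 35 to 27 under library size alone. By group, 9 of 13 AMPK-related kinases were lower and 2 higher, as were 17 and 5 of 26 direct targets, 10 and 9 of 25 metabolic genes, 3 and 1 of 6 upstream kinases and partners, 1 and 1 of 3 folliculin genes and 4 and 4 of 9 hormonal genes.

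In P8 INSL3-KI gubernaculum 26 of 80 passed as lower and 25 as higher, beside 25.8% and 28.9% of all genes, and 17 and 35 under library size alone. Of the direct targets 9 were lower and 9 higher, and of the AMPK-related kinases 3 and 2. Between the mutants 23 of 81 were lower and 37 higher in INSL3-KI, beside 32.2% and 32.5% of all genes. This split turned to 38 and 20 once the GC and length trend was removed.

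The largest falls among these genes in P8 INSL3-KO gubernaculum were those of the insulin receptor substrate Irs2 (0.841 CPM on average against 90.7 in WT, log2 fold change -6.76), the growth factor receptor Igf1r (6.69 against 100.8, -3.91) and the kinase Mark4 (5.37 against 46.8, -3.13). The same 3 were low in the other INSL3-KO and second-table groups: they fell in P8 INSL3-KO testis too (log2 fold changes -3.33, -2.34 and -1.39), and P23 WT testis had 3.30, 6.63 and 20.7 CPM against 29.8, 56.8 and 135 in P23 INSL3-KI testis of the first table. All 12 libraries of the second table had less Irs2 than any of the first, and the part of the table in its fall was not tested. The carnitine palmitoyltransferase of muscle, Cpt1b, was also lower in INSL3-KO gubernaculum (35.9 against 147 CPM, -2.04). It was lower still in INSL3-KI (2.01 CPM, -6.18), within 1 table, together with the muscle enzymes Fbp2 (0.213 against 49.1 CPM, -7.76) and Pfkm (64.2 against 544 CPM, -3.06), and the kinase Sik1 (48.3 against 200 CPM, -2.03).

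Among the largest rises in P8 gubernaculum, the adipokine genes Adipoq and Lep reached 313 and 52.9 CPM in INSL3-KO and 99.7 and 5.84 in INSL3-KI, where WT had 0.204 and 0.0527. Pck1, a gluconeogenic and glyceroneogenic enzyme, was at 207 and 147 CPM against 1.56 in WT. The glycogen synthase gene Gys2 was higher in INSL3-KO than the 0.0208 CPM of WT (log2 fold change 6.34), and the desaturase Scd1 at 1207 CPM in INSL3-KI against 39.7. Adipocyte markers, which include Adipoq and Lep, rose with them in both mutants (5 of 5 passing as higher in each). At P23, 9 of 79 pathway genes passed as lower and 11 as higher in INSL3-KI gubernaculum, beside 8.53% and 4.86% of all genes. The pathway counts were 8 and 17 under library size alone, 2 and 2 with the replicate block, 15 and 19 of 82 with DESeq2, and 20 and 26 of 82 with all groups in 1 fit. The 2 DEGs, both lost with the replicate block, were Pfkm (40.6 against 1480 CPM, log2 fold change -5.19) and its liver form Pfkl (135 against 35.6 CPM, 1.92).

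In testis most pathway genes passed at P23 and P40, as did most genes. At P23, 26 of 80 passed as lower and 47 as higher in INSL3-KO, beside 44.0% and 44.4% of all genes, and at P40 21 and 44 of 80 in INSL3-KI, beside 36.6% and 40.4%. Lipe, the hormone-sensitive lipase, was lower in both (11.4 against 523 CPM at P23, log2 fold change -5.53, and 26.8 against 578 CPM at P40, -4.40), and the glucose transporter gene Slc2a1 was higher in both (2.25 and 1.98). Fbp1 and Cpt1b, at 907 and 421 CPM in P23 WT testis, were at 4.41 and 1.81 in INSL3-KO (-7.69 and -7.89). Tbc1d4, which restrains glucose transporter traffic until phosphorylated, was higher at both ages (2.81 and 2.58). At P8, 41 of 78 were lower and 11 higher in INSL3-KO, beside 28.4% and 26.0% of all genes. The split was 19 to 16 with the GC and length trend removed. In P8 INSL3-KI 14 were lower and 14 higher, beside 18.7% and 17.3% of all genes (6 and 18 under library size alone).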

How the data were processed

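Total RNA of gubernaculum and testis was sequenced in 39 libraries. Per the labels, the authors aligned the reads with HISAT2 to GRCm38 and deposited raw gene counts and FPKM values in 2 tables. The counting tool, its annotation and its use of strand are not given in the sources used here, so reads shared with overlapping or antisense genes cannot be separated. The deposited counts were used as they stand for all tests, and the deposited FPKM values for levels per length and isoform shares. Libraries held 29861447 to 45260372 counts, 94.2 to 97.9% of them in the 21561 shared genes, and no column of other samples was present.

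Each pair of groups was fitted in R 4.3.3 with edgeR 4.0.16 (TMM normalization, filterByExpr at 10 counts per library and 15 in total, quasi-likelihood test, Benjamini-Hochberg adjustment over all genes), the study having used DESeq2 and called genes at adjusted p-values below 0.01 with 2-fold changes. All adjusted p-values in the text are edgeR's unless another tool is named. Age differences in the INSL3-KI effect were fitted as interaction terms. CPM were normalized by TMM over all 39 libraries, and log2 CPM for correlations used a prior count of 2.

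Alternatives were library size in place of TMM, no filter, a replicate block, DESeq2 1.42.0, all groups in 1 fit, limma 3.58.1 on log2(FPKM + 1) and log2(FPKM + 0.1), and each library left out. After seeing the data, fits with each library's smooth trend of log2 CPM with GC content and transcript length (mgcv 1.9.3, GENCODE M21) as offsets were added. The edgeR step was tested on simulated counts. Pathway genes were named by the largest fold changes among DEGs, at most 4 in each direction, and alike genes as the 3 with the highest r. Members and lists were chosen with earlier results of these data known. Coordinates are from GENCODE M21 (GRCm38), and promoters from RefSeq (GRCm38.p6), which listed at least 1 for each of the 9 members.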

Additional observations from a re-analysis of the deposited data

Results flagged for a closer look

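The difference of INSL3-KI from WT in testis was not the same at P40 as at P8 in 8 of the 9 genes, by the interaction term in edgeR with Benjamini-Hochberg adjustment (3 libraries in each of 4 groups, P40 minus P8 on the log2 scale), where 66.9% of 17354 genes passed. The value was negative for Prkag2 (-3.31, SE 0.46, adjusted p = 0.00017), Stk11 (-0.94, SE 0.15, adjusted p = 0.00031), Prkab2 (-0.93, SE 0.23, adjusted p = 0.0049) and Prkaa1 (-0.79, SE 0.20, adjusted p = 0.0052). It was positive for Camkk2 (2.37, SE 0.25, adjusted p = 4.1e-05), Prkag3 (2.29, SE 0.57, adjusted p = 0.0052), Prkab1 (1.76, SE 0.16, adjusted p = 2.1e-05) and Prkag1 (0.75, SE 0.12, adjusted p = 0.00042). With library size as the only scaling, which moved the median of all genes to 0.57, Prkab2 (-0.36) and Prkaa1 (-0.22) no longer passed. Groups of 3 libraries are too small for a test of single outlying samples.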

How the results depend on the processing

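Of 706 alternative values for 93 results on single members, 603 kept their direction and side of the threshold, 77 lost the call, 7 gained it and 19 changed sign. The 606 values with 1 library left out gave 531, 73, 1 and 1. The number of members passing moved by over 1.5 times in these cases: P8 gubernaculum INSL3-KI against INSL3-KO from 7 to 4 and P23 gubernaculum INSL3-KI against WT from 4 to 7 with all groups in 1 fit, P8 testis INSL3-KI against WT from 3 to 1 with the GC and length trend removed, and P8 testis INSL3-KI against INSL3-KO from 5 to 3 under library size, 1 with all groups in 1 fit, 1 with limma at either pseudocount and 0 with the trend removed. In WT gubernaculum P23 against P8 it moved from 2 to 1 under library size and to 4 with DESeq2 or the trend removed, and in the gubernaculum interaction from 0 to 1 with DESeq2. With single libraries left out it ranged from 1 to 5 in P23 gubernaculum INSL3-KI against WT, 1 to 2 in P8 testis INSL3-KI against WT, 1 to 7 in P8 testis INSL3-KI against INSL3-KO, 1 to 4 in P23 testis INSL3-KI against WT and 0 to 3 in WT gubernaculum. The cause was not tested.

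Sign changes were these. Prkag1 in P8 gubernaculum was 0.108 (INSL3-KO against WT), 0.24 (INSL3-KI against WT) and 0.14 (INSL3-KI against INSL3-KO) under library size, 0.0901, 0.25 and 0.16 with limma on log2(FPKM + 1), and 0.0930, 0.26 and 0.17 with log2(FPKM + 0.1), while INSL3-KO against WT ranged from -0.0933 without WT replicate 3 to 0.0094 without WT replicate 1 and INSL3-KI against INSL3-KO 0.47 with the trend removed. Stk11 in P8 gubernaculum INSL3-KI against WT was 0.0513 under library size and 0.19 and 0.20 with limma. With the trend removed Stk11 was -0.19 in P8 gubernaculum and -0.14 in P8 testis for INSL3-KI against INSL3-KO, and Camkk2 was 0.0393 in P8 gubernaculum INSL3-KO against WT. Prkab2 in P40 testis was 0.0858 under library size and 0.0650 and 0.0784 with limma.

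In none of the 14 comparisons of 2 groups did every same-numbered pair of libraries have deviations correlated above 0.1, the rule used here for pairing. Single pairs did exceed it. In P23 gubernaculum INSL3-KI against WT the correlations were -0.12, 0.34 and 0.46 for replicates 1 to 3. With 3 libraries per group this rule cannot show that the samples were unpaired. With the replicate block the number of members passing was 1 in place of 5 for P8 testis INSL3-KI against INSL3-KO and 1 in place of 2 for WT gubernaculum, and moved by less than 1.5 times elsewhere.

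Library size as the only scaling moved the all-gene median log2 fold change to between -0.70 (WT testis P40 against P8) and 0.70 (P40 testis INSL3-KI against WT). In P8 gubernaculum INSL3-KI against WT it changed the genes passing from 3999 lower and 4476 higher to 2378 and 6774. Low counts limit Prkag3 in testis and in INSL3-KI gubernaculum, where libraries held as few as 16 and 11 counts.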
